A study of Rattus norvegicus with 30 samples.

Results

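The genes described here are those that set how much pyruvate enters the mitochondrial citrate cycle, together with the mitochondrial carrier Ucp2, in primary rat hepatocytes given clofibrate. The list held 9 genes: the kinases Pdk1, Pdk2 and Pdk4, the phosphatases Pdp1 and Pdp2, the complex subunits Pdha1, Pdhb and Dlat, and Ucp2. A probe set was taken as a member when its only gene symbol in the platform's probe-gene table was one of these names. That rule found 8 of the 9 genes on 13 probe sets, out of 14217 genes and 31042 non-control probe sets, and Dlat, the acetyltransferase core subunit, had no such probe set and was dropped. Each gene was read from its brightest probe set by mean log2 signal over all 30 arrays. A further dimmer probe set was present for 5 genes, Pdk4, Pdk1, Pdk2, Pdp2 and Pdha1, and its values are given beside the brighter one.

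The pyruvate dehydrogenase complex turns pyruvate into acetyl-CoA inside mitochondria, and so commits carbon from glucose, lactate and alanine to oxidation or to fatty acid synthesis. Pyruvate dehydrogenase kinases phosphorylate the E1 alpha subunit and switch the complex off, and pyruvate dehydrogenase phosphatases remove the phosphate and switch it on again. In liver, Pdk4 is known as the kinase that rises in fasting, when fatty acids replace glucose as fuel, and Ucp2 encodes a carrier of the mitochondrial inner membrane that belongs to the uncoupling protein family.

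The study asked how gene expression in cultured liver cells depends on the dose of clofibrate, a fibrate used to lower blood lipids through the receptor PPAR alpha, and on the time of exposure. Commercially frozen hepatocytes of male Sprague Dawley rats were thawed, plated on collagen, overlaid with Matrigel and dosed after attachment. There were 6 groups of 5 cultures: vehicle (1% DMSO), 60 µM clofibrate and 1000 µM clofibrate, each harvested at 24 h and at 48 h. The clofibrate dosing solutions were also made in DMSO, and both doses of a time share the same DMSO cultures as their control. Each array was hybridised with RNA from 1 well. The sample titles give time, dose and a running array number and name no animals. With 1 well to an array, the p-values measure the spread between cultures.

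Values are MAS5 signals as deposited, a linear brightness with no unit, and a level is not compared between probe sets, since probes differ in how well they bind. The 2% trimmed mean of every array was 1501, so the arrays carry no information on total RNA per well. Arrays of a group correlated at 0.964 to 0.979 on the log2 scale over the 18625 probe sets tested. The array that stood farthest from its group was DMSO 48 h replicate 1, with a residual SD of 0.34 log2 against 0.30 for the next. Signals of the 9 hepatocyte markers with a probe set, among them Alb and Ttr, were above the level of the bacterial Trp control probe sets in every group. Against DMSO, 6 of the 9 passed lower and none higher at 1000 µM and 24 h, and 4 lower and none higher at 48 h. Among all genes tested 20.5% passed lower and 13.4% higher at 24 h, and 26.8% and 17.1% at 48 h. Tat differed by -0.94 and -1.31 log2 and Fgb by -0.36 and -0.82. Scaled to spike-in controls, 1 and 2 of the 9 passed lower. The ratio of 3' to 5' probe sets, a sign of RNA quality, was 2.33 to 2.56 for beta-actin and 1.14 to 1.18 for GAPDH across group means.

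Promoter sequence was taken from RefSeq (rat build GRCr8) for the 2 members that rose most, Pdk4 and Ucp2, and for Pdk2, a kinase of the same family that did not pass against DMSO. The 250 bases before the annotated start are shown 5′ to 3′ on the gene's strand, and capitals mark the motifs found. The Pdk4 window lies on the minus strand at chr4:34568330-34568579, that of Pdk2 on the minus strand at chr10:80483913-80484162, and that of Ucp2 on the plus strand at chr1:164251123-164251372.
Pdk4: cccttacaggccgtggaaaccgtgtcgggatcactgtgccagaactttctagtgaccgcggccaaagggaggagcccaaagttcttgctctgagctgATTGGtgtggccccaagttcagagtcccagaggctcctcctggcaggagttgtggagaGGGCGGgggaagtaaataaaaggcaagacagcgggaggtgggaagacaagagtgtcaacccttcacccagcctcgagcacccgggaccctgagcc
Pdk2: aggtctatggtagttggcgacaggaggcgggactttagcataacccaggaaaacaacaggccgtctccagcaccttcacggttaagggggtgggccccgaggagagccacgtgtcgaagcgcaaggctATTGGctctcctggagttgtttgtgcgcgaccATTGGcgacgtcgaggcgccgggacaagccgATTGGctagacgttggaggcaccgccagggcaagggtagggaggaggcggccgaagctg
Ucp2: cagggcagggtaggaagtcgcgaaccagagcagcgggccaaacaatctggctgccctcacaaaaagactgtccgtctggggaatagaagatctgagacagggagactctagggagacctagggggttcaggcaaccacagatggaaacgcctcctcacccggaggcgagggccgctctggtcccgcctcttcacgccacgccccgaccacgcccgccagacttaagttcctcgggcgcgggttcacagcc

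Both strands were searched for AGGTCA, the half-site that nuclear receptors bind, for AGGTCANAGGTCA, its direct repeat with 1 base between, which holds the half-site within it, for TATAAA, for CCAAT and for GGGCGG. The Pdk4 window held 1 CCAAT box on the opposite strand, 153 to 149 bases before the start, and 1 GGGCGG box, 95 to 90 bases before it. The Pdk2 window held 3 CCAAT boxes on the opposite strand, and the Ucp2 window held none of the 5 motifs. Among the 33469 RefSeq promoter windows of this length, 34% held CCAAT, 30.5% held GGGCGG, 14.1% held AGGTCA, 12.9% held TATAAA and 0.0508% held the direct repeat. These matches describe letters in a short window and say nothing of what binds there or elsewhere. The GC content was 59.2% for Pdk4, 62% for Pdk2 and 62.8% for Ucp2, against a median of 51.2% over all windows.

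Differences below are log2 differences of group means from limma (1 mean per group, 5 cultures a group), with the standard error, and p-values are adjusted by Benjamini-Hochberg over the 18625 probe sets; an adjusted p under 0.05 is called passing. At 1000 µM and 24 h, 6 of the 8 genes passed: Pdk4, Pdk1, Pdp2, Pdhb and Ucp2 were higher than in DMSO and Pdp1 was lower. Over all 10627 genes tested, 13.4% passed higher and 20.5% lower in that comparison. At 1000 µM and 48 h, 5 of 8 passed, all higher (Pdk4, Pdk1, Pdp2, Pdhb and Ucp2), where 17.1% of all genes passed higher and 26.8% lower. The median difference of the 8 genes was 0.15 at 24 h and 0.23 at 48 h, against -0.06 over all genes at both times. The members were chosen with earlier results of these data known, so these counts and medians only describe them. The counts include Ucp2, whose mean in both DMSO groups was below the signal filter of 255.

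Fewer of the genes passed at the lower dose. At 60 µM, Pdk4 alone passed at 24 h (1 of 8, with 4.55% of all genes higher and 3.76% lower), and Pdk4 and Pdhb passed at 48 h (2 of 8, with 5.70% higher and 5.79% lower). The median of the 8 genes was 0.08 at 24 h and 0.06 at 48 h, beside -0.02 and -0.01 over all genes. Between the doses, 4 of 8 passed at 24 h (Pdk4, Pdp2 and Ucp2 higher at 1000 µM, Pdp1 lower; 8.75% of all genes higher and 12.8% lower) and 5 of 8 at 48 h (Pdk4, Pdk1, Pdp2, Pdhb and Ucp2, all higher; 11.9% higher and 18.5% lower). In these bulk cultures, fewer cells of a type and less RNA per cell cannot be told apart.

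**Figure D1:**
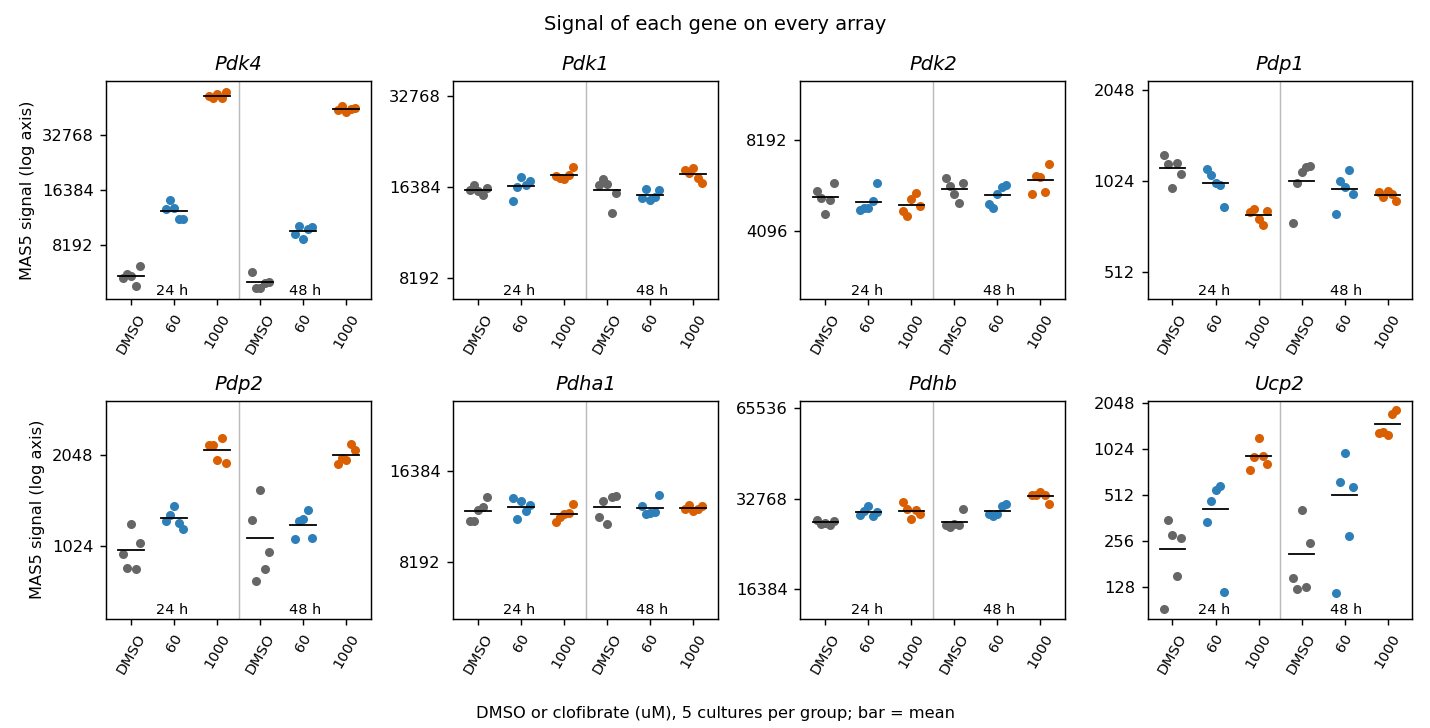
MAS5 signal (log axis) of each of the 8 genes on every array, by dose of clofibrate and time; points are cultures and bars are group means. Pdk4 climbs in separate steps with dose, Ucp2 climbs with wide scatter at DMSO and 60 µM, and Pdha1 stays between 10888 and 13620.4 throughout.

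Pdk4, the fasting-induced kinase of the complex, rose at both doses and both times, and at 1000 µM and 24 h it had the 6th largest increase of the 10627 genes. In DMSO at 24 h its signal was 5425, 5706, 5547, 4907 and 6289. In 60 µM at 24 h it was 12839, 14491, 13039.7, 11388 and 11424, and in 1000 µM at 24 h it was 53971, 52740.2, 55169, 52233 and 56675. The 3 groups were fully separated, each dose above the one before it. At 48 h the DMSO cultures read 5822, 4756, 4752, 5102 and 5120.4. The 60 µM cultures read 9414, 10475.5, 8898, 10083 and 10235, and the 1000 µM cultures 45017, 47375, 44023, 45820.4 and 46368. The groups were again separate, and every clofibrate group of 48 h lay below its 24 h counterpart without overlap.

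The increase at 60 µM was 1.18 ± 0.06 (SE) at 24 h, 2.26-fold, and 0.94 ± 0.06 at 48 h, 1.92-fold (adjusted p = 1.74e-15 and 4.37e-13). At 1000 µM it was 3.28 ± 0.06 at 24 h, 9.74-fold, and 3.16 ± 0.06 at 48 h, 8.97-fold (adjusted p = 3.44e-28 and 6.13e-28). The step from 60 to 1000 µM passed at both times, at 2.10 and 2.22 (adjusted p = 3.55e-22 and 3.61e-23). In order of level the groups ran DMSO 48 h, DMSO 24 h, 60 µM 48 h, 60 µM 24 h, 1000 µM 48 h and 1000 µM 24 h, and only the DMSO groups overlapped. The dimmer Pdk4 probe set gave smaller differences in the same direction, 0.59 ± 0.08 and 0.52 ± 0.08 at 60 µM and 2.42 ± 0.08 and 2.22 ± 0.08 at 1000 µM, all passing (largest adjusted p = 1.26e-05). All of the brighter set's signals lay below the highest signal of any array, which ranged from 95378 to 118603.

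Pdk1, best known as the kinase isoform that hypoxia raises, changed by little. Its signal was 15937, 16547, 15833, 15399 and 16203 in DMSO at 24 h and 17815, 17508, 17389, 17868 and 18970.3 in 1000 µM, with no overlap. At 48 h the DMSO cultures read 16621, 17375, 16705, 13437 and 15627, and the 1000 µM cultures 18617, 18203, 18934, 17542 and 16915, so that 1 treated culture fell within the DMSO range. The difference was 0.16 ± 0.05 at 24 h, 1.12-fold, and 0.18 ± 0.05 at 48 h, 1.13-fold (adjusted p = 0.0169 and 0.00594), and at 60 µM it was 0.04 and -0.05 (adjusted p = 0.766 and 0.715). The dimmer probe set gave -0.10 ± 0.06 at 24 h (adjusted p = 0.246) and 0.24 ± 0.06 at 48 h (adjusted p = 0.00263). The 24 h call did not hold with the mean of both probe sets (0.03, adjusted p = 0.698) or without 1000 µM 24 h replicate 5 (0.14, adjusted p = 0.0555), and with quantile normalization neither time passed (adjusted p = 0.23 and 0.26).

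Pdk2, a kinase isoform found in most tissues, did not pass against DMSO or between doses. Its group means lay between 5000 ± 345 (SD, n = 5) in 1000 µM at 24 h and 6028 ± 577 in 1000 µM at 48 h, and all neighbouring groups in that order overlapped. Between those 2 groups, the lowest and the highest, it rose with time by 0.27 ± 0.07 (adjusted p = 0.00643), a call lost with the mean of both probe sets (0.44, adjusted p = 0.226). At 1000 µM the difference from DMSO was -0.09 ± 0.07 at 24 h (95% interval -0.23 to 0.06) and 0.09 ± 0.07 at 48 h (interval -0.06 to 0.24). The difference between doses at 48 h, 0.17 ± 0.07 (adjusted p = 0.095), passed only without 1000 µM 48 h replicate 1 (0.20, adjusted p = 0.0482). The dimmer probe set scattered widely, from 292 to 1294 in 1000 µM at 48 h alone, and gave 0.75 ± 0.45 there (adjusted p = 0.202). At 24 h its mean log2 signal was 8.71 in DMSO and 8.78 in 1000 µM.

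Pdp2, a phosphatase that reactivates the complex, rose at 1000 µM. In DMSO at 24 h its signal was 961, 863, 1212, 861 and 1046, in 60 µM 1233, 1299, 1389, 1222 and 1166, and in 1000 µM 2207.1, 2207.2, 1968, 2325 and 1922. At 48 h it was 1246, 784, 1563, 858 and 974 in DMSO, 1081, 1239, 1257, 1346 and 1088 in 60 µM, and 1912, 1996, 1972, 2224 and 2133 in 1000 µM. The 1000 µM cultures stood above all others at both times, while DMSO and 60 µM overlapped.

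The increase of Pdp2 at 1000 µM was 1.11 ± 0.13 at 24 h, 2.16-fold, and 0.96 ± 0.13 at 48 h, 1.95-fold (adjusted p = 1.14e-08 and 1.39e-07). Its dimmer probe set gave 1.54 ± 0.17 and 1.90 ± 0.17 (adjusted p = 7.82e-09 and 5.18e-11). At 60 µM the differences were 0.36 ± 0.13 and 0.19 ± 0.13 (adjusted p = 0.0868 and 0.437). The first passed without DMSO 24 h replicate 3, the highest DMSO culture (0.44, adjusted p = 0.0361). Scaling to spike-in controls also let it pass (0.48, adjusted p = 0.0106).

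Pdp1, the calcium-stimulated phosphatase of the complex, was lower at 1000 µM and 24 h. It read 1251, 1169, 974, 1172 and 1079 in DMSO and 808, 829.6, 766, 732 and 814 in 1000 µM, with no overlap. The difference was -0.51 ± 0.11, so DMSO was 1.43-fold higher (adjusted p = 0.000289). At 48 h it read 744, 1009, 1098, 1143 and 1147 in DMSO and 940.5, 909, 949, 931 and 883 in 1000 µM, and the treated cultures lay within the DMSO range. That difference was -0.14 ± 0.11 (adjusted p = 0.332), and without DMSO 48 h replicate 1, the lowest DMSO culture and the array farthest from its group, it passed (-0.25, adjusted p = 0.0417). At 24 h, 1000 µM was below 60 µM by -0.35 ± 0.11 (adjusted p = 0.019), a call lost without 60 µM 24 h replicate 1 (-0.31, adjusted p = 0.0616) or 1000 µM 24 h replicate 4 (-0.32, adjusted p = 0.052). With scaling to spike-in controls, neither 24 h difference passed (-0.29 from DMSO and -0.24 from 60 µM, adjusted p = 0.11 and 0.284). The change of the 1000 µM difference from 24 h to 48 h was 0.37 ± 0.15 (adjusted p = 0.141).

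**Figure D2:**
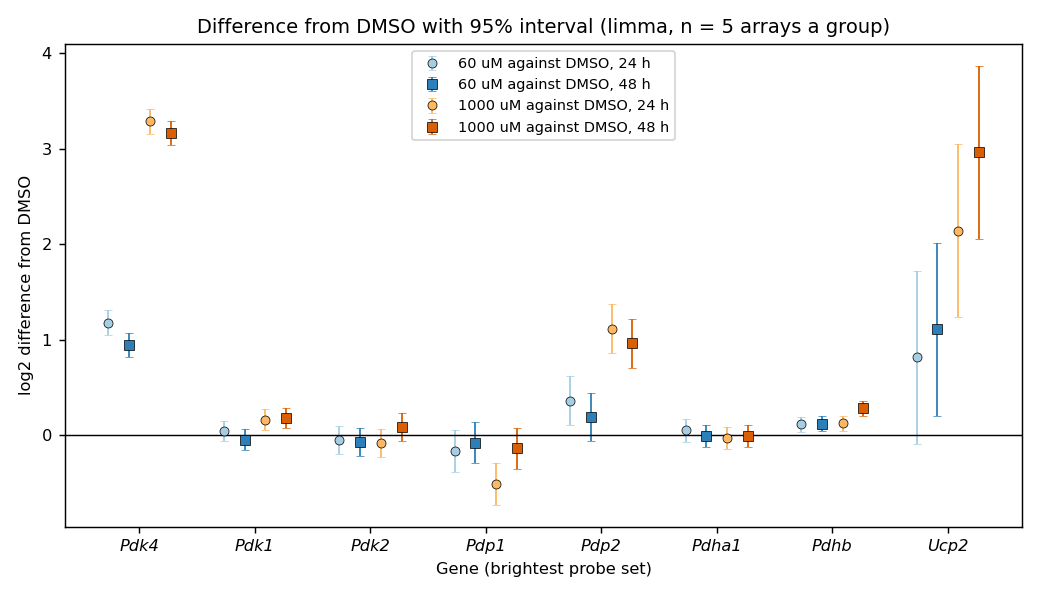
Difference from DMSO (log2, vertical axis) of each gene at both doses and times; points are limma estimates and bars are 95% intervals, n = 5 arrays a group. Pdk4 and Ucp2 stand highest, Ucp2 with the widest intervals, Pdp2 lies near 1 at 1000 µM, and Pdk1, Pdk2, Pdha1 and Pdhb lie within 0.4 of 0.

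Pdha1 and Pdhb encode the alpha and beta subunits of E1, the component that decarboxylates pyruvate and whose alpha subunit carries the regulatory phosphorylation sites. Pdha1 did not pass in any comparison: the differences at 1000 µM were -0.03 ± 0.06 at 24 h (95% interval -0.15 to 0.09) and -0.01 ± 0.06 at 48 h (interval -0.13 to 0.11). Its signals ran from 11098 to 12731 in 1000 µM at 24 h and from 11126 to 13412 in DMSO, and all neighbouring groups overlapped. The dimmer Pdha1 probe set gave 0.22 ± 0.13 and 0.17 ± 0.13 (adjusted p = 0.232 and 0.32).

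Pdhb had the least spread of the 8 genes, with a residual SD of 0.06 log2 that was below that of all but 1.87% of genes, and small differences passed. It read 27907, 27037, 27275, 26797 and 27547 in DMSO at 24 h and 31816, 30179, 28086, 30082 and 29056 in 1000 µM. At 48 h it read 26848, 26388, 27041, 26727 and 30284 in DMSO and 33551, 33782, 34408, 33664 and 31404.5 in 1000 µM. Neither pair of groups overlapped. The increase at 1000 µM was 0.13 ± 0.04 at 24 h, 1.09-fold, and 0.28 ± 0.04 at 48 h, 1.22-fold (adjusted p = 0.0111 and 2.93e-07).

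At 60 µM the Pdhb difference was 0.11 ± 0.04 at 24 h (adjusted p = 0.0771) and 0.12 ± 0.04 at 48 h (adjusted p = 0.0404). The 48 h call at 60 µM was lost with no filter, median centring, quantile normalization, spike-in scaling, no intensity trend, a fit of those groups alone or a block on the sets of array numbers (adjusted p = 0.0508 to 0.333), and without any one of DMSO 48 h replicates 1 to 4 or 60 µM 48 h replicates 4 and 5 (adjusted p = 0.0836 to 0.125). With quantile normalization the increase at 1000 µM and 24 h (adjusted p = 0.0556) and the difference between doses at 48 h (0.08 against 0.16 ± 0.04, adjusted p = 0.122 against 0.0017) did not pass either. The change of its 1000 µM difference from 24 h to 48 h was 0.16 ± 0.05 (adjusted p = 0.075). That change passed without 1000 µM 24 h replicate 1 (0.18, adjusted p = 0.0371), DMSO 48 h replicate 5 (0.19, adjusted p = 0.0119) or 1000 µM 48 h replicate 5 (0.18, adjusted p = 0.0422).

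**Figure D3:**
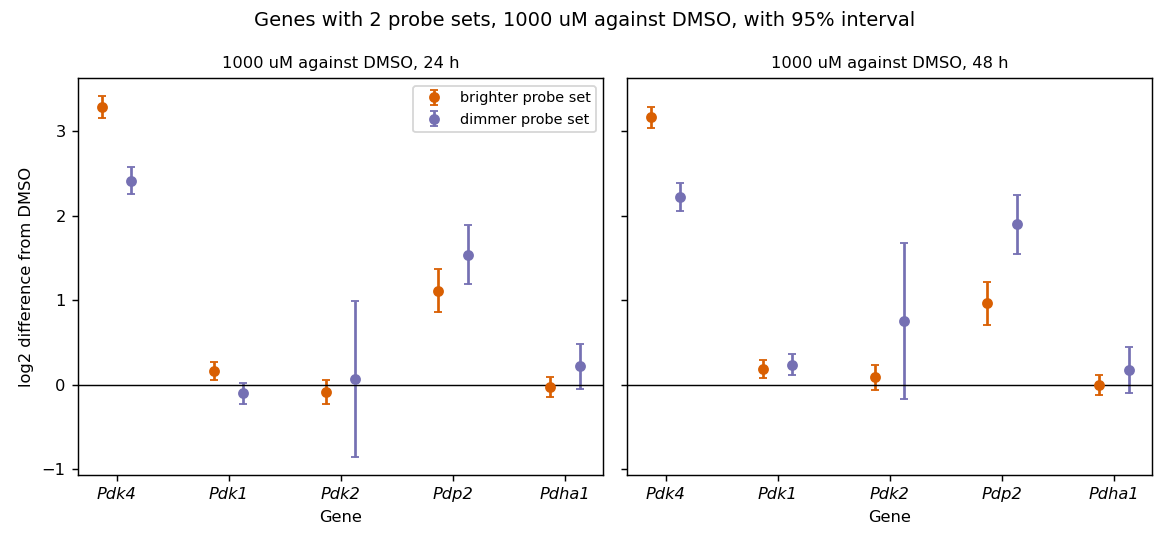
Difference at 1000 µM from DMSO (log2) for the 5 genes with 2 probe sets, at 24 h and 48 h; points are limma estimates and bars 95% intervals, n = 5 arrays a group. Pdk4 and Pdp2 are above 0 on both probe sets at both times, whereas the Pdk1 probe sets lie on opposite sides of 0 at 24 h.

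Ucp2 rose at 1000 µM at both times, from a dim signal. In DMSO at 24 h it read 91.3, 348, 279.7, 151 and 268, in 60 µM 340.4, 464, 553, 587 and 119, and in 1000 µM 745, 906, 1196, 919.6 and 819. At 48 h it read 147, 125, 408, 128 and 249.7 in DMSO, 116, 624, 967, 277 and 575 in 60 µM, and 1292, 1328, 1255, 1729.8 and 1844 in 1000 µM. Every 1000 µM culture lay above every DMSO and 60 µM culture of its time, and 60 µM overlapped DMSO, with 3 of 5 cultures above the DMSO range at each time.

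The increase of Ucp2 at 1000 µM was 2.14 ± 0.44 at 24 h, 4.42-fold, and 2.96 ± 0.44 at 48 h, 7.79-fold (adjusted p = 0.000271 and 1.64e-06). It ranked 27th and 14th among the 10627 genes. At 60 µM the differences, 0.81 ± 0.44 and 1.11 ± 0.44, did not pass (adjusted p = 0.362 and 0.132), and the second passed without 60 µM 48 h replicate 1, the lowest of its group (1.56, adjusted p = 0.0122). The residual SD of 0.78 log2 was larger than that of 98.7% of genes (median 0.16). Its mean in both DMSO groups was below the filter of 255, so Ucp2 was tested because of its signal in the clofibrate groups. All 30 arrays read above the bacterial Trp controls, but that level is low and does not show detection. In DMSO at 24 h Ucp2 averaged 228. The lymphoid markers averaged 442 (Cd4), 402 (Ms4a1), 233 (Cd3e), 214 (Cd2), 209 (Ptprc), 182 (Cd8a), 31.2 (Cd3d) and 26.1 (Cd79b). Whether the Ucp2 signal in DMSO stood above nonspecific signal was not tested.

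Between doses the Ucp2 difference was 1.33 ± 0.44 at 24 h and 1.85 ± 0.44 at 48 h (adjusted p = 0.0335 and 0.00172). The 24 h call was lost with no filter (adjusted p = 0.0581) and with no intensity trend (adjusted p = 0.0532). It was also lost without 60 µM 24 h replicate 5, the lowest of its group (0.93, adjusted p = 0.154), without 60 µM 24 h replicate 1 (1.31, adjusted p = 0.0591), or without 1000 µM 24 h replicates 2, 3 or 4 (1.33, 1.23 and 1.32, adjusted p = 0.0548, 0.0793 and 0.0575).

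Ucp2 is abundant in macrophages and lymphocytes, so markers of those cells stand beside it. Of 11 Kupffer cell and macrophage markers tested, none passed higher and 1 lower at 1000 µM and 24 h (Lyz2, -0.59 ± 0.08, adjusted p = 2.68e-07). At 48 h, 1 passed higher (Tyrobp, 0.72 ± 0.23, adjusted p = 0.0118) and 2 lower (Lyz2, -0.85, and C1qb, -1.86 ± 0.32, adjusted p = 9.62e-11 and 1.72e-05). The 48 h count was 2 higher with median centring or quantile normalization and 3 higher with spike-in scaling, each with 2 lower. At 24 h quantile normalization gave 2 lower. Among all genes 13.4% passed higher and 20.5% lower at 24 h, and 17.1% and 26.8% at 48 h. The summed signal of the 13 markers with a probe set was 29457 to 31147 in DMSO and 25732 to 27857 in 1000 µM at 24 h, and 24502 to 28683 and 23053 to 24408 at 48 h. Cd14 and Lyz2 made up 73.9% to 85.8% of that sum on any array. The other 11 markers summed to 6534 to 7488 in DMSO and 6529 to 6997 in 1000 µM at 24 h, and to 4030 to 5233 and 4592 to 5477 at 48 h, so that these ranges overlapped at both times. Adgre1 was under the bacterial Trp controls in 4 of 6 groups, and the other 12 markers were above them in all 6. The part of these cells in the Ucp2 values was not tested. The 8 lymphoid markers summed to between 1408 and 2184 on any array, Cd3d was under those controls in all 6 groups and Cd79b in 5, and neither of the 2 that could be tested passed at 1000 µM.

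Time was compared within each dose. In DMSO, none of the 8 genes passed between 48 h and 24 h with limma (5.10% of all genes higher and 3.75% lower), and 0 of 8 had an unadjusted p under 0.05. Within 60 µM, Pdk4 alone passed, lower at 48 h by -0.36 ± 0.06 (adjusted p = 0.000163; 5.65% of all genes higher and 5.06% lower). Within 1000 µM, 3 of 8 passed (11.8% of all genes higher and 13.7% lower). Pdk4 was lower at 48 h there (-0.24 ± 0.06, adjusted p = 0.00432), a call lost with spike-in scaling (-0.15, adjusted p = 0.274), and Pdk2, as above, and Pdhb were higher. Pdhb differed by 0.16 ± 0.04 (adjusted p = 0.00204), a call lost with median centring (adjusted p = 0.0755). The 1000 µM cultures did not overlap between times for Pdp1 (0.23 ± 0.11, adjusted p = 0.144) or Ucp2 (0.70 ± 0.44, adjusted p = 0.306), neither of which passed; Ucp2 passed in a fit of those groups alone (adjusted p = 0.00191). No member passed on its brightest probe set for a change of the 60 µM difference with time (0.0659% higher and 0.0847% lower over all genes; 1 of 8, Pdk4, at an unadjusted p under 0.05). Nor did any pass for the 1000 µM difference (5.27% higher and 5.54% lower; 2 of 8, Pdp1 and Pdhb, at an unadjusted p under 0.05). For Pdk4 the change with time was -0.24 ± 0.09 at 60 µM and -0.12 ± 0.09 at 1000 µM (adjusted p = 0.496 and 0.512), and for Ucp2 at 1000 µM it was 0.82 ± 0.63 (adjusted p = 0.529). The dimmer Pdk1 probe set did pass for the 1000 µM difference, at 0.34 ± 0.09 (adjusted p = 0.0116).

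The genes whose 6 group means ran most like those of Pdk4 and of Ucp2 were sought among 10513 tested genes, by the root mean square difference in log2 after each gene's own mean was taken away. For Pdk4 these were Gpd2, the mitochondrial glycerol-3-phosphate dehydrogenase (0.29), Hilpda, a lipid droplet protein (0.32), Crat, carnitine acetyltransferase (0.38), Acot2, a mitochondrial acyl-CoA thioesterase (0.42), and Ucp2 (0.43). For Ucp2 they were Crat (0.10), Gk, glycerol kinase (0.19), Lrrc39 (0.19), Gpd2 (0.19) and Pkhd1l1 (0.23). The difference of Ucp2 itself from DMSO at 1000 µM has a standard error of 0.44, above each distance that involves Ucp2. No error was computed for the distances, so the order within either list is not taken as resolved. At 1000 µM, Crat differed from DMSO by 2.34 ± 0.06 at 24 h and 2.76 ± 0.06 at 48 h. Gpd2 differed by 2.50 ± 0.10 and 2.91 ± 0.10, and Acot2 by 2.40 ± 0.06 and 2.26 ± 0.06. This is a description over 6 group means that share 3 doses, 2 times and the same arrays.

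**Figure D4:**
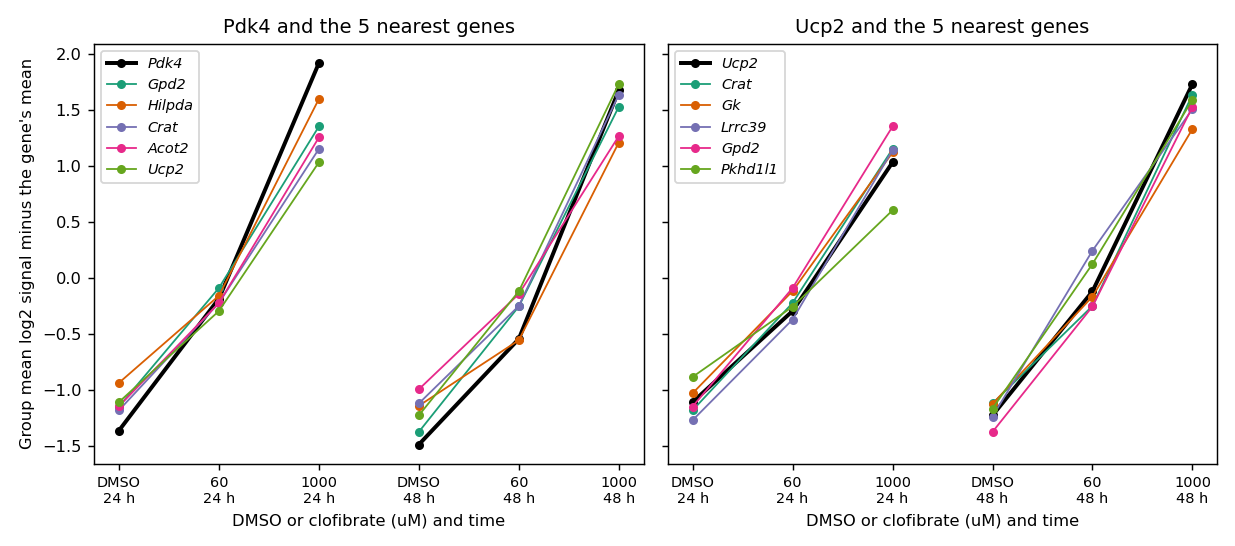
Group mean log2 signal minus each gene's mean, over the 6 groups, for Pdk4 (left) and Ucp2 (right) with the 5 most like genes of each; lines join means of 5 cultures. Every line steps up from DMSO to 60 µM to 1000 µM at both times, and Pdk4 reaches 1.92 at 1000 µM and 24 h.

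Of 10 other genes tested from the pyruvate dehydrogenase complex and the enzymes that build its lipoyl arm, 5 passed higher, none lower and 5 did not pass at 1000 µM and 24 h (median 0.24). At 48 h, 6 passed higher, 1 lower and 3 did not pass (median 0.33). The shares over all genes were 13.4% higher and 20.5% lower at 24 h, and 17.1% and 26.8% at 48 h. Lipt2, the octanoyltransferase that starts lipoylation, rose by 1.10 ± 0.14 at 24 h and 0.50 ± 0.14 at 48 h (adjusted p = 1.55e-07 and 0.00485). Glrx5, a mitochondrial glutaredoxin of iron-sulphur cluster assembly, rose by 0.72 ± 0.04 and 0.85 ± 0.04, and Fdx1, a mitochondrial ferredoxin, by 0.60 ± 0.05 and 0.53 ± 0.05. Iba57, a late factor of iron-sulphur assembly, rose at 48 h (0.68 ± 0.11, adjusted p = 9.15e-06) and gave 0.06 ± 0.11 at 24 h (adjusted p = 0.754), and the change between the times passed (0.61 ± 0.16, adjusted p = 0.0113). Looked at after its values were seen, Dld, the E3 subunit, rose by 0.35 ± 0.06 and 0.30 ± 0.06 (adjusted p = 4.75e-05 and 0.000289), and Fdx2 was the gene lower at 48 h (-0.19 ± 0.06, adjusted p = 0.0172), a call lost with median centring, quantile normalization and spike-in scaling. Also after its values were seen, the kinase Pdk3 gave -0.16 ± 0.18 and 0.00 ± 0.18, and the E3-binding subunit Pdhx 0.13 ± 0.09 and 0.01 ± 0.09, none passing.

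Of 19 genes that supply or use pyruvate, 8 passed higher and 5 lower at 1000 µM and 24 h, and 7 higher and 4 lower at 48 h (medians 0.03 and 0.09). Over all genes 13.4% passed higher and 20.5% lower at 24 h, and 17.1% and 26.8% at 48 h, so the lower counts were near the background. With spike-in scaling, 10 passed higher at each time and 3 and 2 lower. Pck1, the gluconeogenic phosphoenolpyruvate carboxykinase, rose by 2.42 ± 0.11 and 2.14 ± 0.11 (adjusted p = 4.55e-18 and 7.42e-17). Me1, the cytosolic malic enzyme, rose by 1.31 ± 0.06 and 1.50 ± 0.06, and Pc, pyruvate carboxylase, which sends pyruvate to oxaloacetate instead of acetyl-CoA, by 1.10 ± 0.09 and 1.41 ± 0.09. Of the paired mitochondrial pyruvate carrier subunits, Mpc2 rose by 1.10 ± 0.04 and 1.32 ± 0.04 (adjusted p = 3.86e-20 and 1.84e-22). Mpc1, examined after its values were seen, fell at 24 h (-0.30 ± 0.04, adjusted p = 2.92e-08) and gave -0.07 at 48 h (adjusted p = 0.108); scaling to spike-in controls ended the 24 h call (adjusted p = 0.474).

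The sister complexes act on other 2-oxoacids and are built in the same way. The branched-chain one, like the pyruvate complex, is switched by a kinase and a phosphatase. Of 8 genes tested, 4 passed higher and 2 lower at 1000 µM and 24 h, and 5 higher and 2 lower at 48 h (medians 0.11 and 0.27). Among all genes 13.4% passed higher and 20.5% lower at 24 h, and 17.1% and 26.8% at 48 h. The lower counts were thus near the background. Ppm1k, the phosphatase that activates branched-chain ketoacid dehydrogenase, rose by 1.58 ± 0.12 and 2.15 ± 0.12 (adjusted p = 1.83e-12 and 5.02e-16). Its catalytic core Dbt rose by 0.95 ± 0.06 and 0.82 ± 0.06, and its E1 beta subunit Bckdhb by 0.40 ± 0.05 and 0.68 ± 0.05. The opposing kinase Bckdk, examined after its values were seen, was lower by -0.28 ± 0.09 and -0.52 ± 0.09 (adjusted p = 0.021 and 2.88e-05), and its 24 h call was lost with median centring, quantile normalization and spike-in scaling. Dhtkd1, the E1 of 2-oxoadipate oxidation, fell (-0.62 ± 0.08 and -0.35 ± 0.08, adjusted p = 8.53e-08 and 0.000339), the second call lost with spike-in scaling (adjusted p = 0.176).

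In the citrate cycle that receives the acetyl-CoA, 9 of 13 genes passed higher and 1 lower at 1000 µM and 24 h, and 11 higher and 1 lower at 48 h (medians 0.23 and 0.41). The shares over all genes were 13.4% higher and 20.5% lower at 24 h, and 17.1% and 26.8% at 48 h. Cs, citrate synthase, rose by 0.71 ± 0.07 and 0.51 ± 0.07 (adjusted p = 1.67e-10 and 1.18e-07), Sucla2 by 0.54 ± 0.05 and 0.84 ± 0.05, and Suclg1 by 0.37 ± 0.04 and 0.60 ± 0.04. Idh2, the mitochondrial NADP-linked isocitrate dehydrogenase, was the gene that fell, to -0.99 ± 0.05 and -0.61 ± 0.05 (adjusted p = 2.39e-17 and 3.89e-12).

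Of 4 other uncoupling proteins and relatives tested, 1 passed higher at 1000 µM and 24 h, and 2 higher and 1 lower at 48 h (medians 0.40 and 0.37). Among all genes 13.4% passed higher and 20.5% lower at 24 h, and 17.1% and 26.8% at 48 h. Slc25a30 rose by 0.99 ± 0.09 and 0.79 ± 0.09 (adjusted p = 8.44e-11 and 8.18e-09). Ucp3 gave 0.75 ± 0.38 at 24 h (adjusted p = 0.148) and rose by 1.58 ± 0.38 at 48 h (adjusted p = 0.00106). Slc25a14 gave -0.22 ± 0.36 and fell at 48 h (-1.28 ± 0.36, adjusted p = 0.00451), with arrays that overlapped DMSO.

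Of 11 regulators known to act on the Pdk4 gene, 3 passed higher and 3 lower at each time at 1000 µM (medians -0.23 and -0.12). Beside the 13.4% higher and 20.5% lower of all genes at 24 h, and 17.1% and 26.8% at 48 h, the lower counts were near the background. With spike-in scaling 4 passed higher and 1 lower at 24 h and 3 higher and 2 lower at 48 h, with medians of 0.00 and 0.04. Ppara, the receptor that clofibrate activates, was below the filter and not tested. Esrra, an orphan nuclear receptor, rose by 0.88 ± 0.15 and 0.47 ± 0.15 (adjusted p = 2.15e-05 and 0.0128), and Cebpb by 0.46 ± 0.06 and 0.44 ± 0.06. The coactivator Ppargc1a fell (-0.48 ± 0.12 and -0.77 ± 0.12, adjusted p = 0.00152 and 1.91e-06), the first call lost with spike-in scaling (-0.25, adjusted p = 0.192), and the glucocorticoid receptor Nr3c1 fell (-0.46 ± 0.05 and -0.43 ± 0.05).

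**Figure D5:**
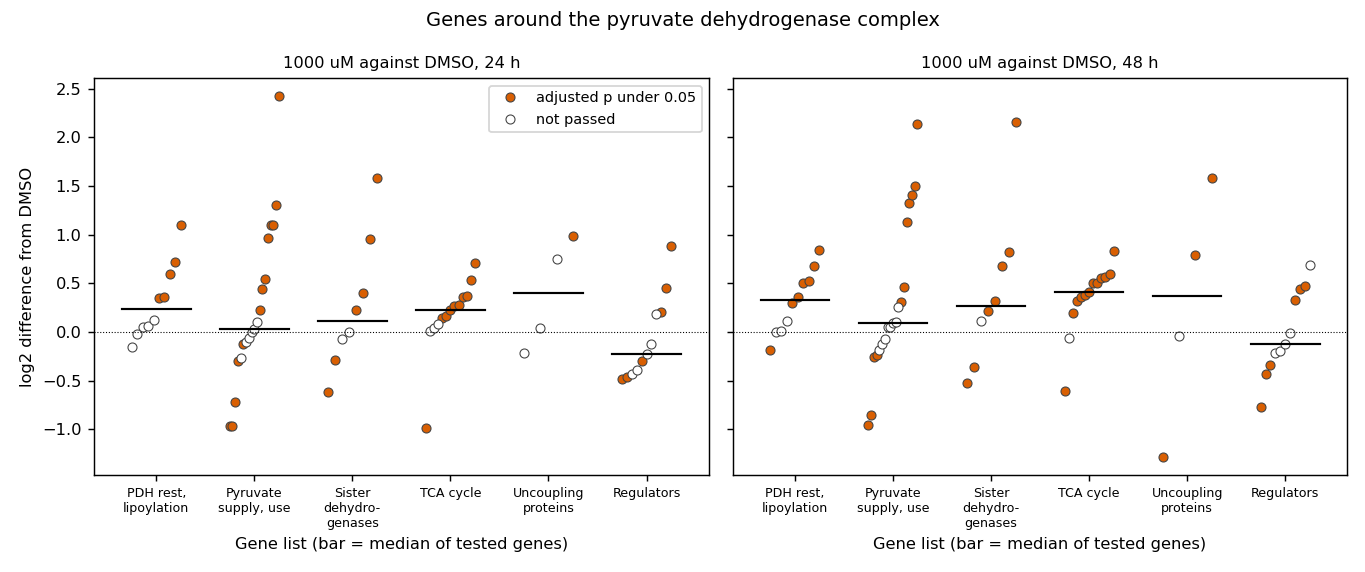
Difference at 1000 µM from DMSO (log2) of every tested gene in each list around the complex, at 24 h and 48 h; points are genes, marked by whether they passed, and bars are list medians. The citrate cycle median is 0.23 at 24 h and 0.41 at 48 h, and the regulators have the lowest medians, -0.23 and -0.12 (0.00 and 0.04 with arrays scaled to spike-in controls).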

How the data were processed

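RNA from 30 cultures was read on 1 Affymetrix rat array each. The deposited intensity values are MAS5 signals, per the submitters' processing notes; build, version and scaling target are not given in the sources used here. The members and gene lists were chosen with earlier results of these data known. log2 signals were fitted in R 4.3.3 with limma 3.58.1 (lmFit with 1 mean per group, eBayes with an intensity trend), without a constant, over 18625 probe sets whose mean was above the 40th percentile (255). Adjusted p-values are Benjamini-Hochberg over those probe sets, and intervals are 95% limma intervals. A gene was read from its brightest single-symbol probe set: 20826 probe sets had 1 symbol, 436 several and 9780 none. Named were all members, up to 4 genes per list with the largest passing difference at 1000 µM, and the 5 genes most like Pdk4 and Ucp2; others are marked. The fit was tested on simulated data with independent normal noise. Such data hold no shift between arrays and no link between probe sets, so that test bears on the code only. Alternatives were no filter, 3 other scalings (median, quantile, poly-A spike-in controls), 64 added to signals, no trend, compared groups alone, the mean of a gene's probe sets, and leaving out each array; a block on sets of array numbers and tests of time within each dose were added later. MAS5 scaling sets every array to 1 mean, so a change in total RNA is not seen. The number of arrays, 5 a group, limits the precision.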

Additional observations from a re-analysis of the deposited data

Results flagged for a closer look

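Of 78 groups of 5 arrays tested over the 13 probe sets, 5 held 1 array set apart from the others by a gap over 0.71 of the group's range (Dixon's 95% value), and chance gives about 1 in 20. For Pdhb, 1 DMSO 48 h culture read 30284, above the others, and 1 culture of 1000 µM at 48 h read 31404.5, below the others. Both carry the replicate number 5, which follows the order of the array numbers and is not in the labels. The dimmer Pdk2 probe set read 1538 in 1 culture of 1000 µM at 24 h and 983 in 1 culture of 60 µM at 48 h, each above the rest of its group. The dimmer Pdha1 probe set read 3939 in 1 culture of 60 µM at 24 h, below the others. The dimmer Pdk1 probe set differed between times in its response to 1000 µM, by 0.34 ± 0.09 log2 (48 h minus 24 h, limma adjusted p = 0.0116), while the brighter one gave 0.02 ± 0.07 (adjusted p = 0.94).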

How the results depend on the processing

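The labels give no replicate number that groups share, but number the arrays in 1 running series in which each of 5 sets of 6 holds 1 array of every group. A fit with those sets as a block and the tests of time within 60 µM and within 1000 µM were added after the data were seen. Deviations from the group means of arrays in 1 set correlated at -0.05 to 0.11, with 1 of 75 pairs over 0.1. Their mean was 0.00955, against -0.00237 for arrays of other sets and groups. Of 30 arrays, 11 lay nearest to their own of the 5 sets, where sets without any effect give about 1 in 5. Whether the sets share more than a number was not tested. With the block, 5510 in place of 5385 probe sets passed at 1000 µM and 24 h, and 7134 in place of 7054 at 48 h. The block gave 25 in place of 16 passing probe sets for 60 µM over time in relation to DMSO, and of the member calls it changed that of Pdhb at 60 µM and 48 h. Of 1832 comparisons of a member's difference with an alternative, 1687 kept direction and side of the threshold, 101 changed the sign of a difference that had not passed, 33 stopped passing and 11 began to pass; no difference that had passed changed sign. At 60 µM and 48 h the count of passing members was 1 in place of 2 with no filter, median centring, quantile normalization, spike-in scaling, no intensity trend, only the groups compared or the block. At 60 µM and 24 h it was 3 in place of 1 with spike-in scaling (Pdk4, Pdp2, Pdhb). In DMSO over time it was 1 in place of 0 with the mean of a gene's probe sets (Pdk4, -0.18, adjusted p = 0.0375). Leaving out 1 array gave 1 to 2 (60 µM, 24 h), 5 to 6 (1000 µM, 24 h), 1 to 3 (60 µM, 48 h), 5 to 6 (1000 µM, 48 h), 2 to 4 and 5 to 6 (between doses, 24 h and 48 h), 0 (DMSO over time, and the change with time of the 60 µM difference), 0 to 1 (that of the 1000 µM difference), 1 (within 60 µM over time) and 3 (within 1000 µM); the arrays that moved a call are named with each gene above. Gene lists and likeness were not refitted without arrays. Scaled to spike-in controls, the median over the probe sets tested went, at 1000 µM, from -0.05 to 0.17 at 24 h and from -0.04 to 0.12 at 48 h, and in DMSO over time from -0.01 to 0.14. The share of passing probe sets that were higher was 39.8% at 1000 µM and 24 h, 54.2% when arrays were centred on their medians and 82.3% on spike-in controls; at 48 h it was 40.2% and 68.5% with spike-in scaling. At 60 µM it was 52.2% at 24 h, 74.9% and 91.3%, and 51% at 48 h and 70.8% with spike-in scaling. The number passing fell from 1686 to 740 (60 µM, 48 h) and from 3332 to 2091 (between doses, 24 h) with spike-in scaling, which also gave 774 in place of 1622 and 2533 in place of 3894 (within 60 µM and 1000 µM over time), 546 in place of 1544 (change of the 1000 µM difference) and 8 in place of 16 (of the 60 µM difference; 25 with quantile normalization and 10 with no trend), and 758 in place of 1293 passed for DMSO over time in a fit of those groups alone. On spike-in controls the higher share went from 41.9% to 71.4% and from 39.6% to 71.2% (between doses), from 55.8% to 92.8% (DMSO over time) from 50.3% to 29.3% (change of the 1000 µM difference), from 54.7% to 77.8% (within 60 µM, 34.8% with median centring) and from 47.4% to 73.5% (within 1000 µM). With that scaling, 7 in place of 5 lipoylation and complex genes, 12 in place of 9 citrate cycle genes and 1 in place of 3 falling regulators passed at 1000 µM and 24 h. With quantile normalization, 7 in place of 9 citrate cycle genes passed higher at 1000 µM and 24 h (median 0.15). At 48 h it gave 11 higher, with a median of 0.31 in place of 0.41. The cause of these shifts was not tested. Signals near background, as for Ucp2 in DMSO, limit what 5 arrays a group can show.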

Other observations

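At 60 µM, 1 or 2 of the 8 members passed, and the lists around them gave unlike counts. Among all genes 4.55% passed higher and 3.76% lower at 24 h, and 5.70% and 5.79% at 48 h. None of the 4 other uncoupling proteins passed in limma at either time (0 at an unadjusted p under 0.05). Of the 11 regulators, 1 passed, lower, at 24 h and none at 48 h (2 and 3 at an unadjusted p under 0.05). At 24 h none passed lower with median centring or spike-in scaling, and 2 did with quantile normalization. Of 10 other genes of the complex and its lipoylation, 3 passed higher at 24 h and 1 at 48 h. Among 8 sister complex genes, 3 passed higher at 24 h, and 2 higher and 1 lower at 48 h. At 48 h spike-in scaling gave 1 higher and none lower, and quantile normalization 3 higher and 1 lower. Of 19 genes that supply or use pyruvate, 6 passed higher and 2 lower at 24 h, and 4 higher and 2 lower at 48 h. None of these passed lower at 24 h with median centring, or at either time with spike-in scaling. Quantile normalization gave 3 lower at 24 h and 1 at 48 h. In the citrate cycle list 8 of 13 passed higher and 1 lower at 24 h, and 7 higher and 1 lower at 48 h, with medians of 0.15 and 0.16 log2, against -0.02 and -0.01 over all genes, of which 4.55% and 5.70% passed higher. At 48 h that count was 4 higher and 1 lower with median centring and 3 higher and none lower with spike-in scaling. Sucla2 rose by 0.24 ± 0.05 and 0.27 ± 0.05 (limma, adjusted p = 0.00245 and 0.000309) and Idh2 fell (-0.29 ± 0.05 and -0.18 ± 0.05, adjusted p = 7.65e-05 and 0.016); with spike-in scaling Idh2 passed at neither time and Sucla2 did not pass at 48 h. Among genes that supply or use pyruvate, Pck1 rose by 0.75 ± 0.11 and 1.06 ± 0.11, Pc by 0.51 ± 0.09 and 0.61 ± 0.09, Mpc2 by 0.51 ± 0.04 and 0.52 ± 0.04, and Me1 by 0.43 ± 0.06 and 0.49 ± 0.06, all passing. Ppm1k, which activates the branched-chain complex, rose by 0.45 ± 0.12 and 0.64 ± 0.12 (adjusted p = 0.0166 and 0.000377). Lipt2 rose at 24 h (0.93 ± 0.14, adjusted p = 2.13e-05) and gave -0.20 ± 0.14 at 48 h (adjusted p = 0.471). Slc25a30 and Ucp3 did not pass at 60 µM, with differences of 0.00 and 0.17 at 24 h.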
